A study of Mus musculus with 4 samples.

Results

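The regions assigned to 10 scavenger and efferocytosis receptor genes (Mertk, Axl, Tyro3, Gas6, Mfge8, Cd163, Marco, Stab1, Timd4 and Cd5l) were examined in mouse bone marrow-derived macrophages (BMDMs) by ATAC-seq, an assay in which a transposase cuts and tags DNA where chromatin is open. Peaks from the 4 libraries were joined into a region wherever they overlapped by 1 bp or more, and a region belonged to the gene named for its highest peak. By this rule 33 of 60710 regions were members. They came from 9 of the genes, because no peak was assigned to Timd4. All groups were wild-type bone marrow cells of mice aged 8 to 12 weeks, differentiated for 6 days in L929 supernatant, which supplies the growth factor MCSF. The 2 control libraries received no IL-4, and the 2 IL-4 libraries were from cells given IL-4 at 20 ng/ml for 1 hour. The study's methods call the 2 libraries of each group biological replicates but do not say whether each came from its own animal, so the tests below measure the spread between these libraries. The comparison asked which sites of open chromatin at these genes were present, and how tall they were, with and without the cytokine. None of the 10 member regions shared by every library passed the test across the genome, and the others were not in it. The largest change in height among those 10 was a lower peak in intron 1 of Stab1 after IL-4.

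Efferocytosis is the clearance of dying cells by phagocytes. A bridging molecule such as Gas6 or Mfge8 holds phosphatidylserine on the dying cell, and a receptor of the TAM family (Tyro3, Axl, Mertk) or an integrin binds the bridge, while Timd4 binds the lipid directly. Scavenger receptors such as Marco, Cd163 and Stab1 take up modified lipoproteins, haemoglobin complexes, matrix fragments and microbes, and Cd5l is a soluble protein of macrophages with scavenger receptor domains. IL-4 signals through STAT6 and drives alternative macrophage polarization, a state associated with tissue repair.

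The control replicates 1 and 2 had 45250 and 41885 peaks and the IL-4 replicates 1 and 2 had 41978 and 39462, and a member region had a peak in 23, 19, 17 and 21 of 33 cases in the same order. The peak height used throughout is the deposited peak score, read as −log10 of the q-value, so it is a measure of confidence that grows with depth as well as with signal. Over all peaks the median was 8.04 and 7.46 without IL-4 and 7.69 and 6.41 with it. The read depth of each library is unknown, so a library without a peak is described as such and not as closed chromatin. Of 8 macrophage markers, 7 had a promoter peak in every library and Csf1r had none. None of 5 T cell, 4 B cell or 3 eosinophil markers had one, while 1 of 5 neutrophil markers (S100a8, at 6.63 and 6.18 in control and 6.62 and 2.49 with IL-4) had one in every library and 2 of 3 dendritic cell markers (Flt3 and Zbtb46) in 3 libraries. Whether other cells contributed to the results was not tested.

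The sequences of the regions on which the results below turn are given on the + strand of GRCm38.p6 (mm10), read from the reference, with letters in capitals where a motif matched on either strand. The motifs were TTCNNNNGAA (the form bound by STAT6), TTCNNNGAA (other STAT factors), TGANTCA (AP-1), AGGAAGT (PU.1) and TTGCNNAA (C/EBP). The first pair lies upstream of the Mertk start and is shown because its peaks did not coincide in all libraries, the next pair belongs to Stab1 and holds the largest change among the regions tested and the control-only region, and the last 3 are the Axl region and the 2 tallest upstream regions of Cd163. The Mertk sequence nearer the gene stops at the base before the start, and the longer regions of Stab1 and Cd163 are given as 300 bases around the middle of the highest peak.
Mertk, 683 bp upstream, chr2:128698190-128698439: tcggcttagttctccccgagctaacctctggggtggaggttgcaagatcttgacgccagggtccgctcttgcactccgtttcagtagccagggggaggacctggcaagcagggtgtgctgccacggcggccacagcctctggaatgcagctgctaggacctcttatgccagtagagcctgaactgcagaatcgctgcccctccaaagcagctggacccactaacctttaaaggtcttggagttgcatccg
Mertk, 150 bp upstream, chr2:128698644-128698914: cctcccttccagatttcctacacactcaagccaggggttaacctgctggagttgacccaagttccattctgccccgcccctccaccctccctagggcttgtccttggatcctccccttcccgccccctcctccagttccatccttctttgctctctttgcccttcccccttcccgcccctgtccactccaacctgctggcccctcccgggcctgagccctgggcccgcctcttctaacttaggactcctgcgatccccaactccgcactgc
Stab1, intron 1, chr14:31166220-31166519: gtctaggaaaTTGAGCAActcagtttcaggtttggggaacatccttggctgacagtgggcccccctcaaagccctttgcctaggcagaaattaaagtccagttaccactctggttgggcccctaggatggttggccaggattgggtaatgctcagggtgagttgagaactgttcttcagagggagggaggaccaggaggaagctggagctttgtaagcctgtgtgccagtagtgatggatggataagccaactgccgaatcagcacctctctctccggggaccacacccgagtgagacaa
Stab1, 14482 bp upstream, chr14:31183026-31183220: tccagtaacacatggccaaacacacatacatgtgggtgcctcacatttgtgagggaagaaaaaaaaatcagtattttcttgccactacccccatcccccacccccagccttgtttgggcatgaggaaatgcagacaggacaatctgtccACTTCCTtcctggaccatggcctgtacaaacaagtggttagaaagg
Axl, intron 6, chr7:25776781-25777066: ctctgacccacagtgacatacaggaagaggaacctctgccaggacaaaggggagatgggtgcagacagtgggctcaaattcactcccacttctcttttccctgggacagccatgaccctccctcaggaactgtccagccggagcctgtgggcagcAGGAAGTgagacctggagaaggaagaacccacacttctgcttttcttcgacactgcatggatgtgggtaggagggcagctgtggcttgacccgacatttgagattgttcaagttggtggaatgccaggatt
Cd163, 31161 bp upstream, chr6:124273340-124273639: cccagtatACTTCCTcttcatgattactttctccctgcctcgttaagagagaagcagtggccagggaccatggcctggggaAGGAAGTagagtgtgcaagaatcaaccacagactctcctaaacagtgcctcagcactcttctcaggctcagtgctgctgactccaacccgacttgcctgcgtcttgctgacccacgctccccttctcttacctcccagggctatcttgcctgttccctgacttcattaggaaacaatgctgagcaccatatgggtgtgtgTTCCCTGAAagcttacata
Cd163, 7073 bp upstream, chr6:124297441-124297719: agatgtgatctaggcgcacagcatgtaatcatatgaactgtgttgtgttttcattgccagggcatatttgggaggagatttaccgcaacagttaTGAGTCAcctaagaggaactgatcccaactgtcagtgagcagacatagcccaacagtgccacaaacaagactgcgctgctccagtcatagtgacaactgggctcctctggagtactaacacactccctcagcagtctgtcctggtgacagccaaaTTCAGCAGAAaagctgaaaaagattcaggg

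Many member regions had a peak in some libraries only. A peak was present in 4 libraries at 10 of them (30.3%, against 41.9% of all regions), in 3 at 6 (18.2% against 13.3%), in 2 at 5 (15.2% against 15.2%) and in 1 at 12 (36.4% against 29.6%). Only 5 lay in a promoter (15.2%, against 18.8% of all regions), 11 in introns (33.3% against 40.2%) and 15 in intergenic DNA (45.5% against 35.8%), and the remaining pair lay in an exon of Cd163 and the 5′ UTR of Gas6. These shares are descriptions and were not tested. The Cd163 gene had 6 regions, Gas6, Marco and Stab1 had 5 each, Mertk, Mfge8 and Cd5l had 3 each, Tyro3 had 2 and Axl had 1.

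Peaks at the promoter were called at 4 of the 10 genes. Mertk, Tyro3, Gas6 and Mfge8 had a region within 1 kb of the RefSeq transcription start site (TSS), whereas Axl, Cd163, Marco, Stab1, Timd4 and Cd5l had none in any library. Over 17491 protein-coding genes 51.4% had such a region. Mfge8 was the 1 member whose start carried a region with a peak in all 4 libraries, a state found at 41.3% of those genes. Axl, Cd163, Marco, Stab1 and Cd5l were represented by distal or intragenic regions alone, as the map of distances shows.

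**Figure D1:**
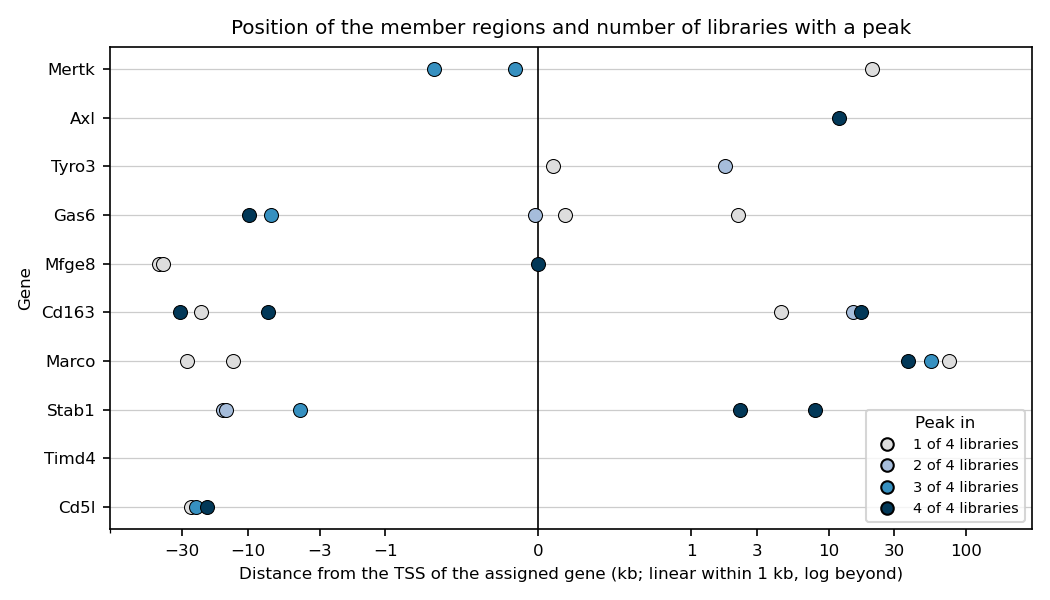
Each circle is a region placed by its distance in kb from the TSS of its gene (x axis, linear within 1 kb and logarithmic beyond), with 1 row per gene and a darker fill where more of the 4 libraries had a peak. Mfge8 has the 1 region at a start that all 4 libraries share, and Timd4 has no region.

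Among the TAM receptors, Mertk, which triggers engulfment of dying cells, had 2 neighbouring promoter regions separated by 204 bp. The region 683 bp upstream had heights of 11.84 and 11.54 in control replicates 1 and 2 and 9.67 in IL-4 replicate 1, with no peak in IL-4 replicate 2. The region 150 bp upstream, which runs across the start, had a height of 6.11 in control replicate 1, no peak in control replicate 2, and heights of 13.88 and 9.23 in the IL-4 libraries. The taller of both peaks was the upstream one in the control libraries and the one at the start in the IL-4 libraries. Joined within 500 bp, they gave 1 region with heights of 11.84 and 11.54 in control and 13.88 and 9.23 with IL-4. The groups of the joined region overlapped, and its log2 height changed by 0.19 (SE 0.41, limma adjusted p = 0.94). Neither region alone was among those tested, as each lacked a peak in 1 library, so their opposite order was not tested. With missing peaks set to the lowest score the log2 change was 2.27 (SE 0.80, limma adjusted p = 0.412) at the start and −1.62 (SE 1.01, limma adjusted p = 0.626) upstream, values that depend on that floor. Neither region held any of the 5 motifs. The third region, in intron 1 of 18, had a single peak of 1.35 in IL-4 replicate 2, the lowest of all member heights.

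The bars for Stab1 and Mertk set these values beside the peak widths. The width of the Mertk region upstream was 250 and 233 bp in control and 143 bp in IL-4 replicate 1. At the start it was 217 bp in control replicate 1 and 226 and 323 bp in the IL-4 libraries.

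**Figure D2:**
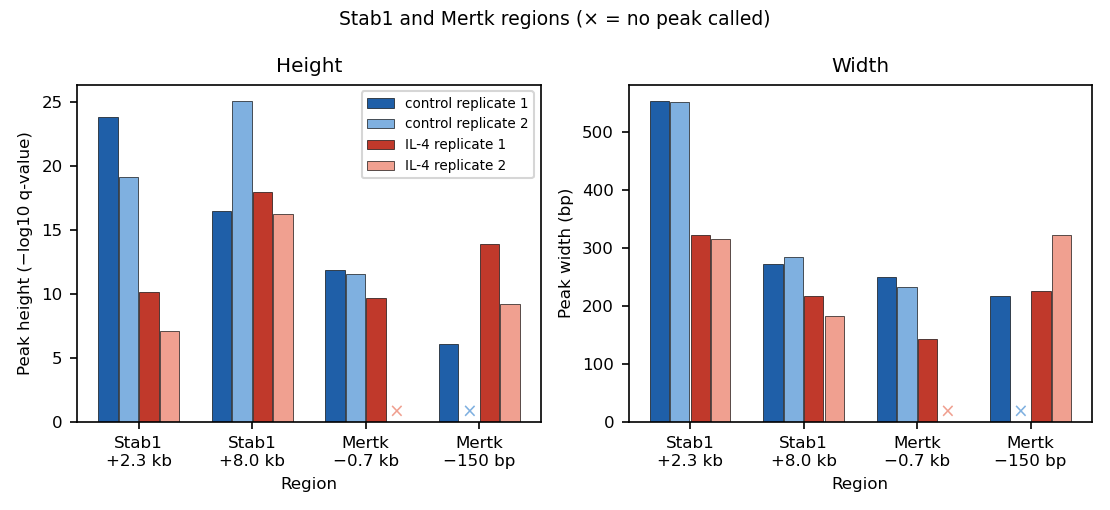
Peak height (left, −log10 q-value) and peak width (right, bp) in each of the 4 libraries at a pair of Stab1 and a pair of Mertk regions, named by distance from the TSS, with each bar 1 library and a cross where no peak was called. At Stab1 +2.3 kb the IL-4 heights of 10.11 and 7.09 lie below the control heights of 23.85 and 19.11, and the widths fall from 555 and 553 bp to 323 and 316 bp. Of all regions with a peak in every library, 29.3% had lower heights and 29.2% shorter widths in both IL-4 libraries.

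Axl, a TAM receptor that binds Gas6 and is known from inflamed and alternatively activated macrophages, had a single region, in intron 6 of 19 (chr7:25776781-25777066). Its heights were 11.57 and 8.55 in control and 6.62 and 5.20 with IL-4. Both IL-4 libraries were below both control libraries, and the 2 groups still did not overlap after quantile normalization. The log2 change was −0.51 (SE 0.50, 95% interval −1.52 to 0.49, limma adjusted p = 0.852), and the region held the PU.1 motif shown in capitals above. Tyro3, a TAM receptor prominent in the nervous system, had regions in few libraries. Its region 97 bp inside the gene had a height of 4.11 in IL-4 replicate 1 alone, and that in intron 1 had 4.65 in control replicate 2 and 3.73 in IL-4 replicate 2.

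Of the bridging molecules, Gas6, the vitamin K-dependent ligand of all TAM receptors, had its most constant region 9716 bp upstream of the start (chr8:13503950-13504541). There the heights were 16.02 and 14.61 in control and 6.97 and 10.03 with IL-4. Both control libraries stood above both IL-4 libraries, and the log2 change was −0.64 (SE 0.42, 95% interval −1.48 to 0.20, limma adjusted p = 0.73). It was −0.21 without IL-4 replicate 1 and −1.04 without IL-4 replicate 2. A region 6828 bp upstream, in an RMER19C LTR, had heights of 6.98 and 8.32 in control, 4.51 in IL-4 replicate 1 and no peak in IL-4 replicate 2. At the promoter, 24 bp upstream, a peak was called in control replicate 1 (5.79) and IL-4 replicate 2 (3.78) only. The remaining Gas6 regions were seen in 1 library each, at 1.64 in the 5′ UTR with IL-4 replicate 2 and at 7.96 in intron 2 with control replicate 1.

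Mfge8, the secreted bridge between phosphatidylserine and integrins, had its shared region at the start (chr7:79148837-79149249). The heights were 13.77 and 8.47 in control and 17.93 and 9.73 with IL-4. The 2 groups overlapped, and within each group replicate 1 was the taller. The log2 change was 0.53 (SE 0.41, 95% interval −0.29 to 1.34, limma adjusted p = 0.785), and the change was 0.27 without control replicate 2 and 0.26 without IL-4 replicate 1. The other Mfge8 regions, 40995 and 44286 bp upstream, had a peak in control replicate 1 alone, at 4.75 and 3.50.

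Cd163, the haemoglobin-haptoglobin scavenger receptor, had the tallest region of all members, 31161 bp upstream (chr6:124273234-124273754). Its heights were 44.29 and 32.76 in control and 31.13 and 25.49 with IL-4. Its lowest height exceeded that of 97.3% of the regions shared by every library. The IL-4 libraries were both lower, also after normalization, with a log2 change of −0.35 (SE 0.21, 95% interval −0.76 to 0.06, limma adjusted p = 0.678). This region held a TTCNNNGAA match and 2 PU.1 motifs in the stretch shown above and 2 C/EBP motifs outside it.

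The region 7073 bp upstream of Cd163 (chr6:124297441-124297719) had heights of 21.82 and 13.63 in control and 18.76 and 18.29 with IL-4. Both IL-4 values fell between the control values, and the log2 change was 0.30 (SE 0.31, limma adjusted p = 0.866). It was the 1 member region with a match to the STAT6 form TTCNNNNGAA, which read TTCAGCAGAA at chr6:124297690-124297699, and it also held an AP-1 motif. The region in intron 11 of 16 lay in an RLTR19-int LTR and had heights of 14.05 and 7.88 in control and 6.95 and 5.05 with IL-4. Here the IL-4 libraries were again both lower, with a log2 change of −0.59 (SE 0.50, limma adjusted p = 0.811). No region lay at the start of Cd163. Its nearest, in exon 4 of 17, had a peak in IL-4 replicate 2 alone, at 12.42, the tallest of the 12 member regions seen in a single library. The other regions were in intron 10 (6.45 in control replicate 1 and 1.96 in IL-4 replicate 2) and 21787 bp upstream (2.95 in IL-4 replicate 1).

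Marco, a class A scavenger receptor for bacteria and particles, had no height above 7.46. The 1 shared region, 37596 bp downstream of the start and beyond the gene's end (chr1:120467432-120467605), had heights of 3.17 and 3.41 in control and 4.11 and 3.64 with IL-4. Of the 10 member regions shared by every library, it was the 1 in which both IL-4 libraries were above both control libraries, and its lowest height exceeded that of 7.75% of the regions shared by every library. The log2 change was 0.44 (SE 0.54, 95% interval −0.65 to 1.52, limma adjusted p = 0.888), and the region held 2 PU.1 motifs. A region at 55291 bp had heights of 5.65 and 7.46 in control and 2.37 in IL-4 replicate 2. The 3 others were each in 1 library, and the one nearest the start, 12719 bp upstream, had a height of 2.49 in IL-4 replicate 2. The remaining heights were 2.66 in control replicate 2 at 27683 bp upstream and 5.53 in control replicate 1 at 74674 bp.

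Stab1, the multidomain receptor stabilin-1, known from alternatively activated macrophages, held the largest change of all member regions tested. In intron 1 of 68 (chr14:31166093-31166647, 2271 bp from the start) the heights were 23.85 and 19.11 in control and 10.11 and 7.09 with IL-4. Both IL-4 libraries were far below both control libraries, and the peaks were also narrower, at 555 and 553 bp in control and 323 and 316 bp with IL-4. Of all regions tested, 29.3% had lower heights and 29.2% shorter widths in both IL-4 libraries than in both control libraries. After quantile normalization the log2 height was 4.41 and 4.25 in control and 3.28 and 3.13 with IL-4. The log2 change was −1.12 (SE 0.37, 95% interval −1.86 to −0.38), or 0.46 of the control height. The unadjusted limma p was 0.00365 and the adjusted p was 0.331, so the region was not called, and 1.1% of the 25442 regions tested had a p as low. The region held an AP-1 and a C/EBP motif, the first outside the stretch shown.

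The other tall Stab1 region had heights that overlapped between the groups. In intron 11 of 68 (7967 bp from the start) the heights were 16.47 and 25.11 in control and 17.96 and 16.23 with IL-4. The log2 change was −0.05 (SE 0.31, 95% interval −0.68 to 0.57, limma adjusted p = 0.983). The difference between both regions' changes was not tested. Upstream of Stab1 lies Nisch, and 3 of the regions assigned to Stab1 fell in its introns. One of them, 14482 bp upstream in intron 13 of 20 (chr14:31183026-31183220), was the 1 control-only member region, with heights of 6.57 and 5.02 in control and no peak with IL-4. With missing peaks set to the lowest score it had a log2 change of −2.01 (SE 0.59, limma adjusted p = 0.388), which depends on that floor. Its neighbour 15180 bp upstream, in the same intron, had 5.68 in control replicate 1 and 3.78 in IL-4 replicate 2, and joining peaks within 500 bp merged both and left no control-only region. In intron 19 of 20 (4173 bp upstream of Stab1) the heights were 4.76 in control replicate 2 and 4.07 and 4.21 with IL-4.

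Timd4, the phosphatidylserine receptor Tim-4 of resident peritoneal and tissue macrophages, had no peak assigned to it in any of the 4 libraries and none within 1 kb of its start. Cd5l had 3 upstream regions and none within 1 kb of the start. The tallest, 19731 bp upstream in an Lx8b LINE repeat (chr3:87338059-87338274), had heights of 16.73 and 10.62 in control and 8.13 and 18.29 with IL-4. The IL-4 values enclosed the control values, so the replicates of 1 group differed by more than the groups did, and the log2 change was 0.08 (SE 0.41, limma adjusted p = 0.979). The region 23660 bp upstream had 4.61 and 4.48 in control and 3.49 in IL-4 replicate 1, and that at 25773 bp had 4.32 in control replicate 2 alone.

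**Figure D3:**
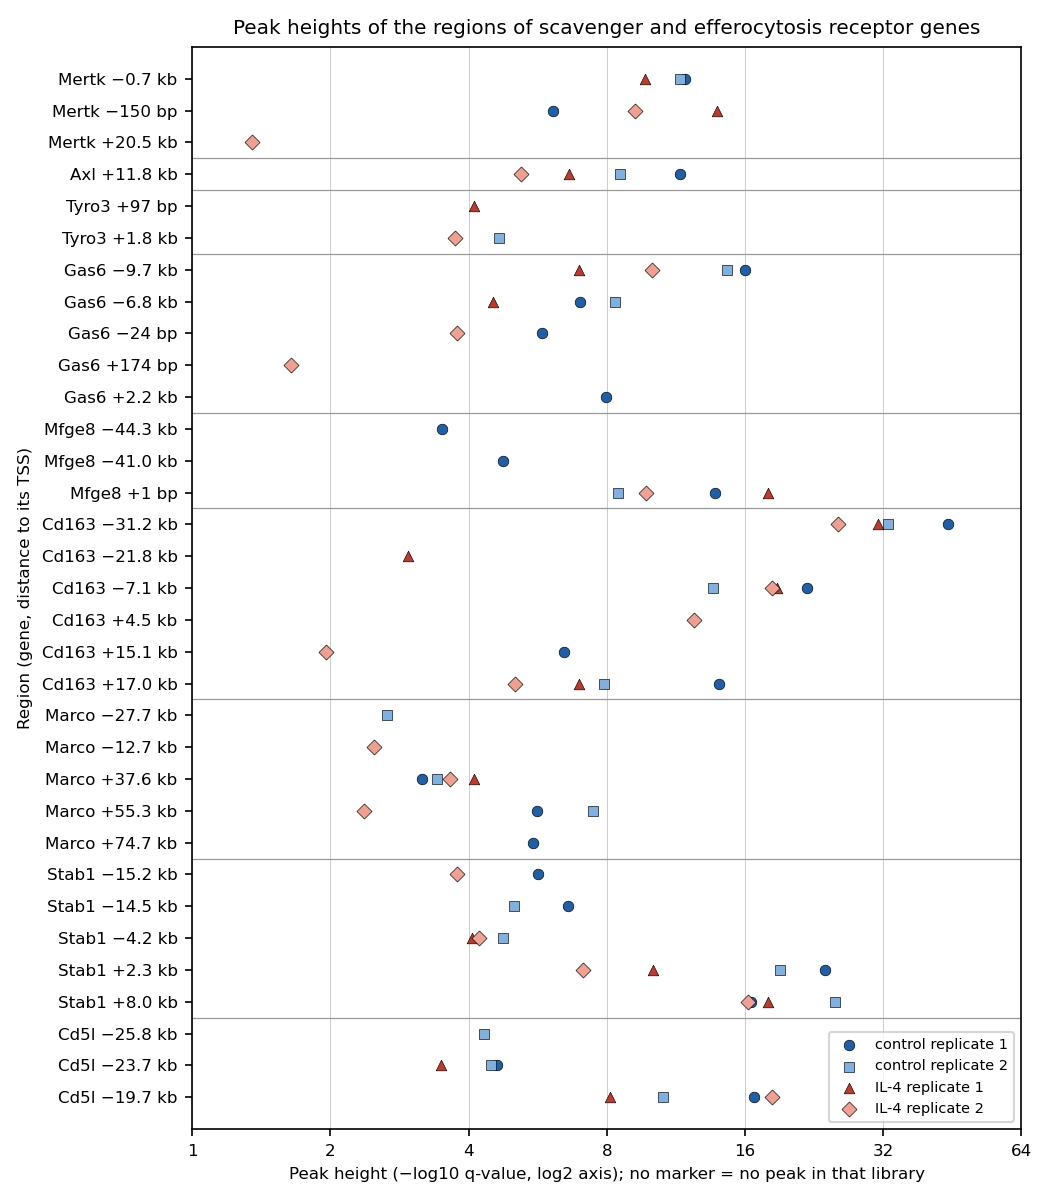
Peak height (x axis, −log10 q-value on a log2 axis) of each of the 33 member regions in the 4 libraries, with 1 row per region named by gene and distance to its TSS and no marker where a library had no peak. The regions range from 1.35 at Mertk +20.5 kb to 44.29 at Cd163 −31.2 kb, and most rows hold fewer than 4 markers.

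Across the 10 member regions shared by every library, limma (quantile-normalized log2 heights, all 25442 such regions fitted together, Benjamini-Hochberg adjustment) called none at an adjusted p under 0.05. The background was 0.0157% of regions called higher and 0.00786% called lower with IL-4. At an unadjusted p under 0.05 none was higher and 1 (Stab1 intron 1) was lower, against 4.12% and 4.15% of all regions tested. The 6 regions called over the whole genome had a change of at least 1.45 on the log2 scale. The change at Stab1 intron 1 was smaller, and whether more libraries would lead to a call was not tested. An exact permutation test of 2 against 2 libraries cannot go below p = 0.3333.

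The normalized heights of both IL-4 libraries were below both control libraries at 5 of the 10 regions (Axl, Gas6, both Cd163 regions named as lower and Stab1 intron 1), against a background of 18.6%, and above them at 1 (Marco), against 19.2%. Before normalization the same counts were 5 and 1, against 29.3% and 8.83%. The median log2 change was −0.20 over the members and −0.00 over all regions tested, and 6 of 10 changes were negative (60%, against 50.1%). Over pairs of 1 IL-4 and 1 control library the median of the members had an SD of 0.21. The median of the members ranged from −0.35 to −0.05 over the alternatives, which tested 9 to 21 member regions. Peak widths were shorter in both IL-4 libraries at 3 member regions (Stab1 introns 1 and 11 and Cd163 intron 11), where the background was 29.2%, and longer at none, where it was 9.4%. Among all 33 regions none was IL-4-only, against a background of 2.53%, and 1 was control-only, against 4.33%. IL-4 replicate 2 had the fewest peaks and the lowest median height of the 4 libraries, and the part this played in raw heights and in missing peaks was not tested.

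**Figure D4:**
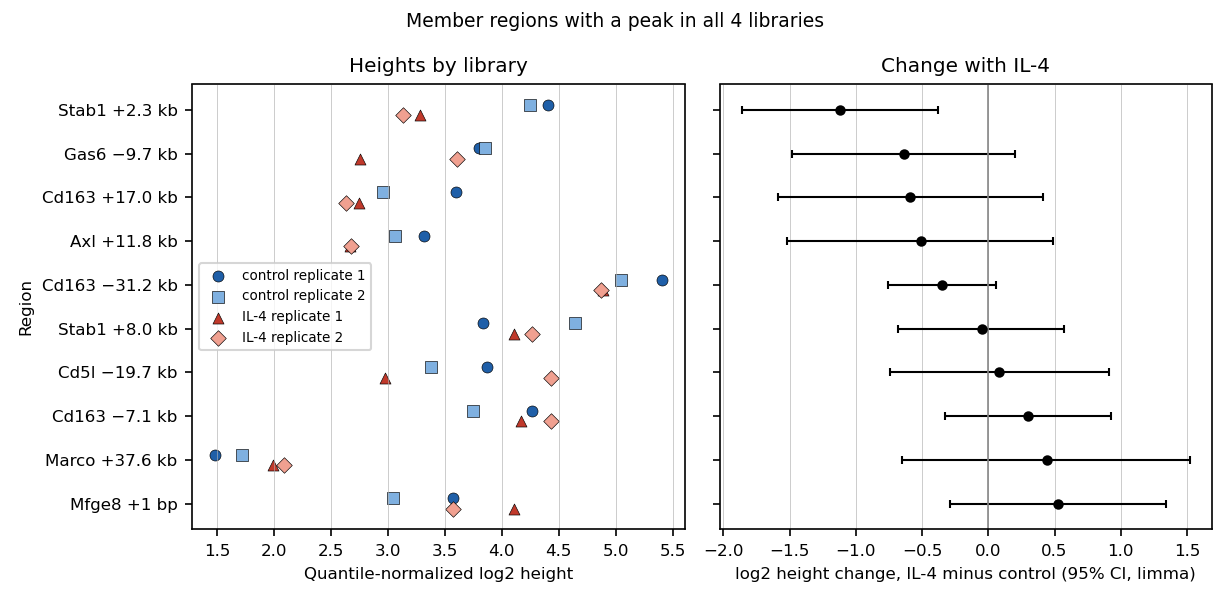
Left, the quantile-normalized log2 height of the 10 member regions shared by every library, with 1 marker per library, and right, the log2 change with IL-4 and its 95% interval from limma, ordered from the largest fall to the largest rise. Stab1 +2.3 kb has a change of −1.12 and the 1 interval that does not reach 0, while the other 9 intervals include 0. The intervals are not adjusted for the number of regions tested, and the limma adjusted p at Stab1 +2.3 kb was 0.331.

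The motif content of the member regions was near that of all regions for most of the motifs searched on both strands. The STAT6 form TTCNNNNGAA matched in 1 of 33 (3.03%, against 7.22% of all regions), TTCNNNGAA in 2 (6.06% against 6.9%), TGANTCA in 7 (21.2% against 21.8%), AGGAAGT in 9 (27.3% against 22.2%) and TTGCNNAA in 5 (15.2% against 12.1%). The forms TTCNNNNGAA and TTCNNNGAA differ in spacing and were counted apart. In the RefSeq promoters of 300 bases, TTCNNNNGAA was found in Cd5l alone of the 10 members, against 6.99% of 27025 promoters, and the other motifs in none. A match is a description of letters and was not tested as a binding site.

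Some regions in the bodies of member genes carried the name of a neighbour. In intron 18 of 18 of Mertk, a region assigned to Tmem87b (chr2:128796543-128796910) had heights of 17.23 and 9.65 in control and 9.33 and 4.06 with IL-4. Both IL-4 values were below both control values, with a log2 change of −0.83 (SE 0.48, limma adjusted p = 0.671). In intron 15 of Mertk a peak of 5.95 was called in IL-4 replicate 2 alone, and in intron 5 of 5 of Cd5l a region assigned to Fcrl1 had a peak of 8.34 in control replicate 1 alone.

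A list of 42 further genes of dying cell clearance and scavenging (receptors, bridging molecules, the engulfment machinery and find-me receptors) gave 267 regions at 36 genes, and 112 of those (41.9%) were shared by every library. Limma called none of these 112 higher and none lower, and at an unadjusted p under 0.05 it gave 4 higher and 7 lower, where 4.12% and 4.15% of all regions tested were. Their median log2 change was −0.12. The lowest limma adjusted p, 0.248, belonged to a region assigned to Elmo1, an adaptor of the engulfment machinery. That region lay far upstream, at −166348 bp from the start, and had a log2 change of −1.29 (SE 0.37). IL-4-only regions numbered 6 of the 267 (2.25%) and control-only regions 8 (3%), against 2.53% and 4.33% of all regions. By the lower of their heights, the first 2 IL-4-only regions were assigned to P2ry6 and S1pr1. The region of P2ry6, a receptor for uridine nucleotides that promotes phagocytosis, lay 11459 bp from the start (heights 6.79 and 11.44). That of S1pr1, a receptor for a lipid that attracts phagocytes, lay 78387 bp upstream (4.11 and 4.64). S1pr1 also had a control-only region, 41583 bp from the start (5.09 and 2.66). By the same order, the first 2 control-only regions were at Dock1, a Rac activator in engulfment (20068 bp upstream, heights 11.00 and 7.33), and at Scarb2, a lysosomal membrane protein of the Cd36 family (5.26 and 6.09). Cd36 itself, which takes up oxidized lipids, had an IL-4-only region 102 bp upstream of a start, with heights of 3.13 and 4.78. Ptprj had a control-only region 390 bp from a start, with heights of 2.92 and 3.30. Both were named after their values were seen.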

How the data were processed

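ATAC-seq peaks of 4 libraries (2 control, 2 IL-4) were used. Per the study's methods and the submitters' processing notes, the authors aligned reads to mm10 with BWA 0.7.10, used SAMtools 0.1.19, called peaks in each library with MACS2 2.0.10 at a q-value of 0.01, removed blacklisted peaks and annotated the rest with HOMER 4.2. The deposited peak score is taken as −log10 of the q-value, a reading that rests on its values and on the caller used. The files do not name the unit, and 133 to 603 peaks per library had a score under 2, below that stated threshold. The lowest score of a library was 1.30 to 1.32, so the reading is not certain. No reads were used here, so the DiffBind analysis of the methods was not run and precision rests on the number of libraries. Columns not mapped to a sample numbered 0.

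Peaks were merged at 1 bp overlap (bedtools 2.31.1 gave the same regions). Log2 scores of regions with a peak in every library were quantile-normalized and fitted in limma 3.58.1 (R 4.3.3) with a variance trend. A run on simulated data planted changes larger than any fitted at a member region, so recovery of smaller changes was not tested. The members and gene lists were chosen with earlier results of these data known. Named by rule were each gene's region nearest the TSS and its region with the highest lowest score, group-specific or called regions, and the 3 largest rises and falls. The rest of the 33 are described for completeness. Of the 42 further genes, called regions and the 2 group-specific regions per direction with the highest lower score were named by rule. Elmo1, Cd36, Ptprj and the control-only region of S1pr1 were named after their values were seen. Alternatives were stricter scores (2 and 5), merging within 500 bp, median centring, no variance trend, a replicate block, inclusion of regions with missing peaks, a 200-base motif window and leaving out each library. Gene positions and sequences came from RefSeq (GRCm38.p6), where all 10 members had a promoter entry.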

Additional observations from a re-analysis of the deposited data

How the results depend on the processing

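The 10 member regions tested stayed uncalled under the alternatives run, with adjusted p from 0.269 upward (9 of them at a peak score of at least 5, a fit added after the data were seen that left out Marco), and 105 of 109 alternative values of single regions kept their direction. The exceptions were Stab1 intron 11, which turned to 0.34 without control replicate 2 and to 0.03 without IL-4 replicate 1, and Cd5l 19731 bp upstream, which turned to −0.16 without control replicate 2 and −0.62 without IL-4 replicate 2. Over the runs that left out 1 library, Stab1 intron 11 ranged from −0.46 to 0.34, the Cd5l region from −0.62 to 0.80, Gas6 9716 bp upstream from −1.04 to −0.21, Mfge8 from 0.26 to 0.79, and the Cd163 regions from −0.54 to −0.17 (31161 bp upstream), 0.03 to 0.57 (7073 bp upstream) and −0.91 to −0.27 (intron 11). The median of the members was −0.05 with merging within 500 bp, −0.10 with median centring, −0.35 at a score of at least 5, −0.34 with missing peaks included and −0.33 to −0.16 with a library left out. Stab1 intron 1 ranged from −1.21 to −1.02, with adjusted p from 0.269 to 0.801. A peak score of at least 5 left 20 member regions and made 3 control-only, and merging within 500 bp left 0. When single libraries were left out, where 1 peak can define a group, control-only regions ranged from 2 to 5 and IL-4-only regions from 1 to 4. In 200-base windows the STAT6 form matched 0 member regions.

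The labels number the libraries 1 and 2 in each group and do not say whether the numbers pair them. Deviations of same-numbered libraries correlated at 0.00677 over 25442 regions, which cannot show whether they shared an animal or a preparation. In the main fit the numbers were not treated as pairs. With a replicate block 0 member regions were called higher and 0 lower, the median change was −0.20, Stab1 intron 1 had an adjusted p of 0.269, and calls over all regions rose from 6 to 14. Calls over all regions were 0 with no variance trend, 0 with missing peaks included, 8 with median centring, and 6, 14, 0 and 0 without control replicates 1 and 2 and IL-4 replicates 1 and 2, in that order. Depth is unknown, and the size of change that 2 libraries a group can detect was not tested.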
